A study of Daphnia magna with 45 samples.

Results

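The 120 sequence IDs described here are the part of the Daphnia magna transcriptome whose level moved furthest at 1 h of exposure while showing little average difference at 6 h. They comprise 60 IDs that were higher and 60 that were lower at 1 h, of 19159 IDs in the deposited table. Levels were taken as log2(CPM + 1), where CPM is the reads of an ID after every library is scaled to the same total. For each ID a difference D was formed at a given hour. It is the mean level of the libraries exposed to isoprenaline, to the mixture or to propranolol 4 mg/L, minus the mean level of the control and propranolol 1 mg/L libraries. These sets are called the exposed and the reference libraries below. IDs with a mean of at least 2 CPM over all 45 libraries numbered 15915, and 8706 of them had an absolute D below 0.3 at 6 h. The 60 highest and the 60 lowest D at 1 h among these 8706 define the members. The values at 1 h, and the small D at 6 h, are the measured values the members were selected on, and they are given as description only. The libraries at 0, 3 and 24 h entered the choice only through that minimum mean, and not through D.

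RNA came from whole bodies of female D. magna of the strain Xinb3, aged 5 days, with 20 animals in 35 mL of solution. Control animals received no compound. Propranolol was given alone at a lower (1 mg/L) or a higher (4 mg/L) concentration. Isoprenaline (100 mg/L) was given alone, or together with the lower propranolol concentration, which is called the mixture. At 1 h there were 9 exposed and 6 reference libraries, and at 6 h 8 and 6. Both reference groups have libraries of 3 and 24 h as well, the higher propranolol concentration has libraries of 24 h, and the control has 1 library of 0 h. Each group had 3 libraries except 2 for propranolol 4 mg/L at 6 h and 1 for the control at 0 h. Whether replicates were raised in separate cultures is not stated in the labels. The p-values therefore reflect the spread among libraries alone, and that spread may be technical.

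Isoprenaline activates beta-adrenergic receptors, which in vertebrates raise cyclic AMP in heart muscle and speed the heart, and propranolol blocks them. Arthropods use the related amines octopamine and tyramine at receptors of the same family, and the water flea heart is a single muscular chamber that can be watched through the carapace. In a whole body the heart is a small part of the RNA, and fewer cells of a type and less RNA per cell cannot be told apart. None of the IDs matched the RefSeq table of 28335 D. magna genes (0 matched), and the files do not pair IDs with gene names. Members are therefore described by level and pattern, and 2 IDs of each direction are named.

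Library totals, recovered as whole reads from the CPM steps, ran from 13.5 to 43.7 M reads. They were 13.5 to 40.9 M in the exposed and 16.5 to 19.3 M in the reference libraries at 1 h. The 10 most abundant IDs took 10.05% to 11.9% of reads in the exposed and 12.1% to 22.3% in the reference libraries at 1 h, with no overlap. At 6 h these shares were 10.4% to 12.6% and 14.1% to 20.7%, again without overlap. The share held by the most abundant IDs thus moves with the exposure at both hours, and its part in D was not tested. When libraries were rescaled by their median log ratio, the median D at 1 h of the same members was 0.62 for the higher set (0.60 without rescaling) and -0.64 for the lower set both with and without it.

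D at 1 h ran from 1.09 down to 0.50 in the higher set and from -1.83 to -0.51 in the lower set. The first IDs outside the sets had D of 0.497 and -0.506, against 0.501 and -0.508 for the last inside. The choice at 6 h removed most IDs with such differences. Of 725 IDs with a D at 1 h at least as high as that of the higher set, 665 were left out for their D at 6 h, and 444 of these had a D above 0 at 6 h. Of 482 as low as the lower set, 422 were left out, and 390 of these were below 0 at 6 h. The absolute D at 6 h reached 0.299 inside both sets and began at 0.301 and 0.304 among the IDs left out. Most IDs with a D of this size at 1 h thus also had a D beyond the limit at 6 h.

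**Figure D1:**
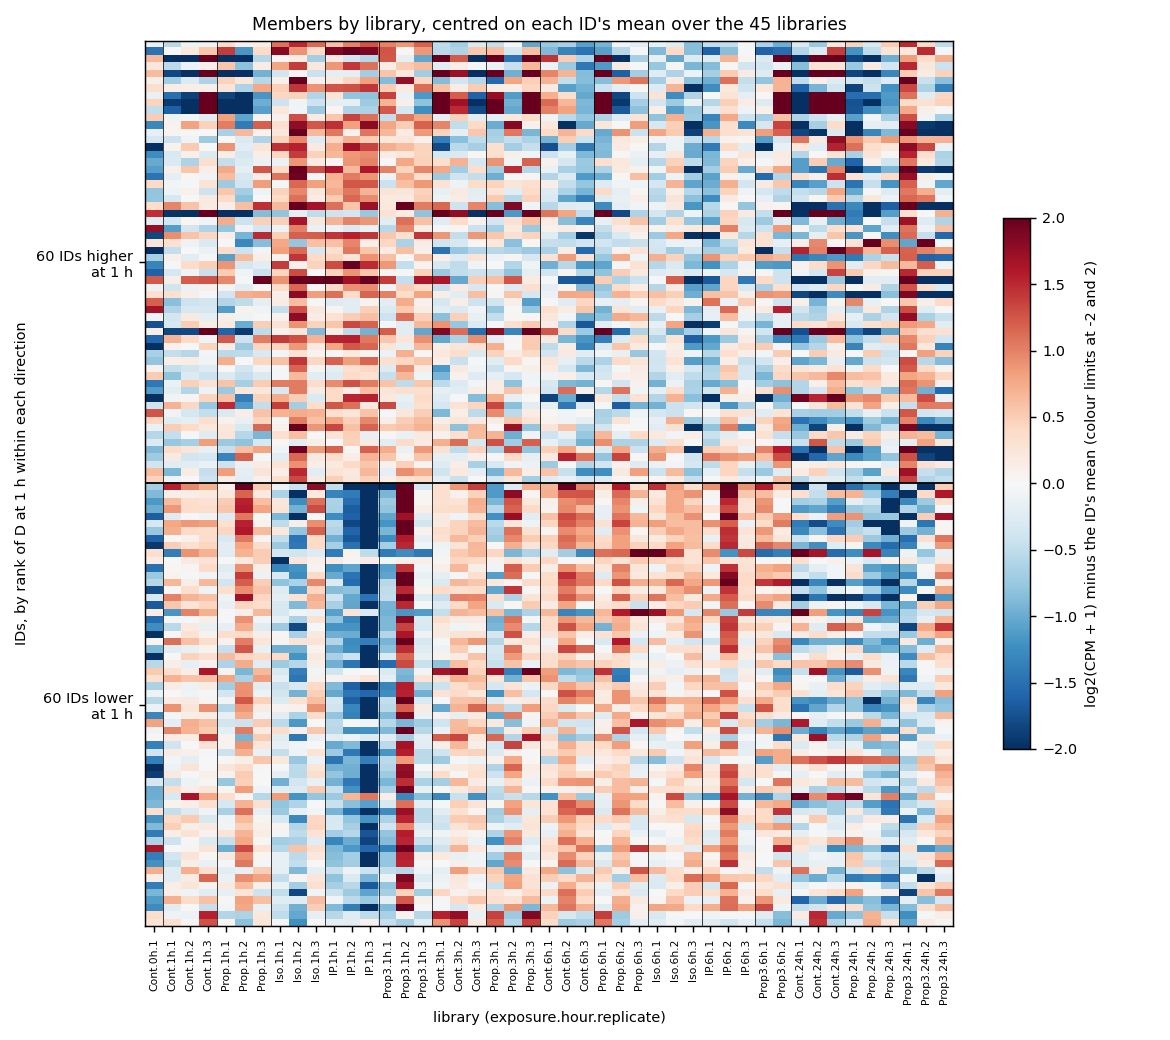
Level of each of the 120 members (rows, ordered by D at 1 h within each direction) in each of the 45 libraries (columns), as log2(CPM + 1) minus the ID's mean. The mixture at 1 h replicate 3 is the lowest 1 h library in 45 of the 60 lower IDs and propranolol 4 mg/L at 1 h replicate 2 is the highest in 49 of them.

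The higher set was moderately abundant, with mean levels of 2.07 to 334.6 CPM and a median of 13.4 CPM, against a median of 18.9 CPM over all IDs with at least 2 CPM. All 3 exposures lay above the reference mean in 58 of the 60 IDs at 1 h. The median difference over the 60 IDs was 0.67 for isoprenaline, 0.77 for the mixture and 0.44 for propranolol 4 mg/L, against 0.02, -0.02 and 0.03 over all IDs with at least 2 CPM. The mixture gave the largest of the 3 differences in 32 IDs, isoprenaline in 19 and propranolol 4 mg/L in 9. Since all 3 are measured against the same 6 reference libraries, their likeness is no separate evidence.

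Taken by library, the median level of the 60 higher IDs was 3.86 to 4.87 on the log2 scale in the 9 exposed libraries at 1 h and 3.22 to 3.77 in the 6 reference libraries. These ranges do not overlap, a separation that the choice on D at 1 h favours. Single IDs overlapped far more: in 2 of the 60 every exposed library was above every reference library, against 0.339% of all IDs with at least 2 CPM. In 29 IDs all 9 exposed libraries were above the median of the reference libraries, and in 46 IDs at least 8 were. The choice on D at 1 h favours such counts. Their share over all IDs was not computed, and nothing is read from them. Isoprenaline replicate 2 was the highest of the 15 libraries in 28 of the 60 IDs, against 16.8% of all IDs with at least 2 CPM. Propranolol 1 mg/L replicate 2 was the lowest in 28, against 28.1%. Without isoprenaline replicate 2 the median D of the set was 0.53, and with each of the other 14 libraries left out in turn it was 0.56 to 0.67.

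Dapma7bEVm021605t1 had the highest D, 1.09, of all members. At 1 h it was at 4.29, 6.17 and 6.19 CPM in the control and 8.73, 7.24 and 7.35 CPM in propranolol 1 mg/L. It was at 15.3, 20.8 and 15.9 CPM in isoprenaline, at 10.6, 14.3 and 17.3 CPM in the mixture, and at 14.2, 13.0 and 16.4 CPM in propranolol 4 mg/L. Each of the 9 exposed libraries was above each of the 6 reference libraries. By 6 h the ID was at 2.95 to 6.50 CPM in the exposed and 2.65 to 6.41 CPM in the reference libraries, and the single 0 h library held 6.10 CPM. It was the 1 member of the higher set called by limma for the 1 h contrast that chose it, where 0.0992% of all IDs were called higher (0.308% in either direction). At an unadjusted p under 0.05, 29 of the higher set were higher, against 3.07% of all IDs, and nothing is read from these counts.

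Dapma7bEVm005575t1 was the other ID of the higher set with no overlap at 1 h, at 11.7 to 29.4 CPM in the exposed and 8.17 to 11.6 CPM in the reference libraries. Its group means at 1 h were 9.42 ± 1.75 CPM in the control, 10.4 ± 1.95 in propranolol 1 mg/L, 19.6 ± 8.54 in isoprenaline, 19.6 ± 2.01 in the mixture and 13.0 ± 1.55 in propranolol 4 mg/L (SD, n = 3 each). The propranolol 4 mg/L libraries began only just above the highest reference library, 11.7 against 11.6 CPM. At 6 h the exposed libraries were at 4.74 to 12.6 CPM and the reference libraries at 5.22 to 10.7 CPM, so that the sets overlapped almost wholly. At 0 h it was at 3.90 CPM.

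**Figure D2:**
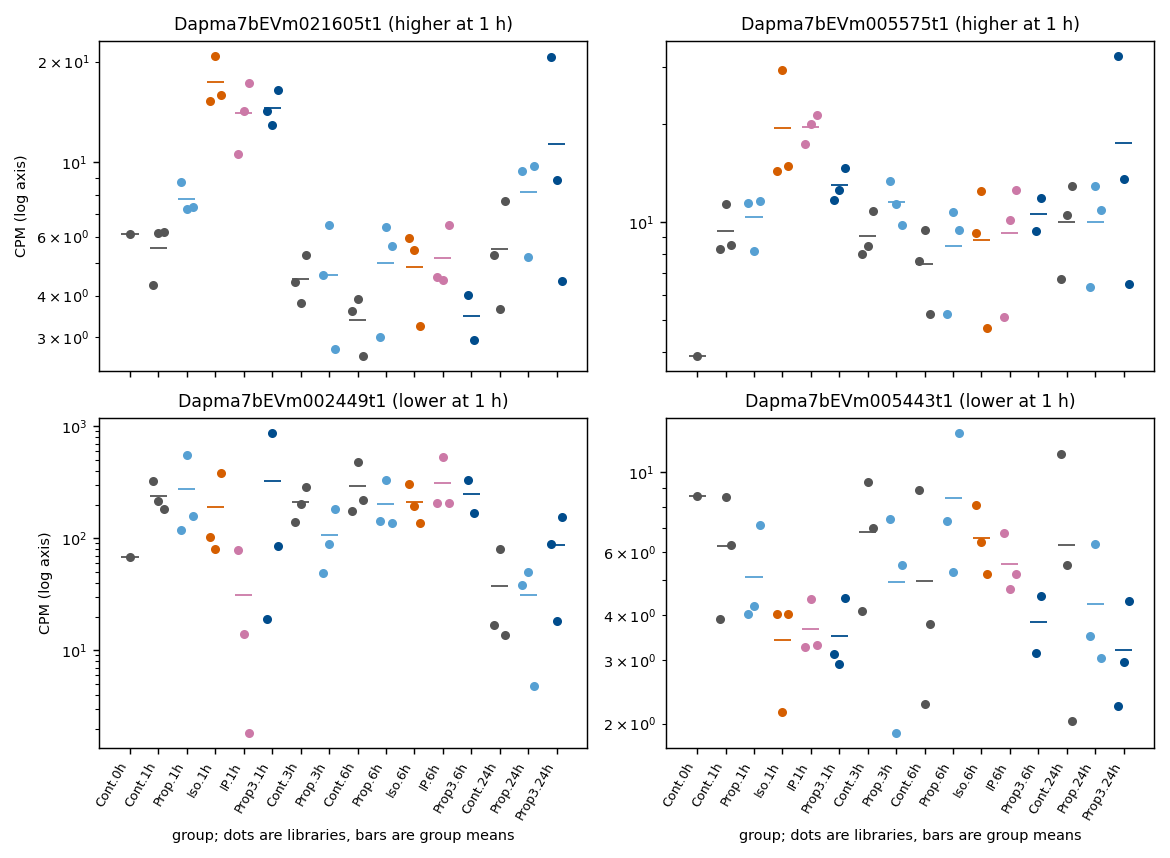
CPM (log axis) of the 4 named IDs by group, with a dot for each library and a bar for the group mean. Dapma7bEVm021605t1 stands at 10.6 to 20.8 CPM in the exposed libraries at 1 h and at 4.29 to 8.73 CPM in the reference libraries, whereas the exposed libraries of Dapma7bEVm002449t1 span 1.85 to 875.6 CPM.

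Within the higher set, 8 IDs were described apart from the other 52. They were singled out after their values were seen, as the IDs whose highest library at 1 h was control replicate 3. Their levels summed to 4703 CPM in that library, and to 121.0, 102.8, 96.7, 91.5 and 242.2 CPM in the other 5 reference libraries at 1 h. The exposed libraries at 1 h lay between these extremes, at 264.7 to 722.1 CPM with a median of 385.8. In 7 of the 8 the arithmetic mean of the exposed libraries was below that of the reference libraries, so that their place among higher IDs rests on the log scale. None of the other 52 had such a reversal (7 in the 60). The 8 were not all alike. The lowest exposed minus the highest reference library at 1 h was -1.06 in the ID of rank 55, against -4.59 to -3.99 in the other 7. Its isoprenaline difference at 6 h was 0.33, against -0.80 to -0.48. Mean levels of the 8 ran from 9.82 to 334.6 CPM, so the sums mostly reflect the abundant ones.

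A wide spread among reference libraries was also seen in libraries that did not enter D. At 3 h the summed level of these 8 IDs was 2187, 1409 and 100.4 CPM in the control and 1972, 217.6 and 5396 CPM in propranolol 1 mg/L. At 24 h it was 94.5, 2624 and 3797 CPM in the control, 139.7, 129.2 and 205.4 CPM in propranolol 1 mg/L, and 625.3, 534.5 and 637.6 CPM in propranolol 4 mg/L. The next counts are over all hours and include the 1 h and 6 h libraries that entered D. Of the 25 control and propranolol 1 mg/L libraries, 8 were above 1000 CPM, 12 below 250 and 5 between. Of the 20 libraries of the other 3 exposures, 19 were between 250 and 1000 CPM. The remaining 1, propranolol 4 mg/L at 6 h replicate 2, was above at 2090 CPM. Among these 20, only the 3 propranolol 4 mg/L libraries at 24 h did not enter D. Across the 15 libraries at 3 and 24 h the deviations of the 8 IDs from their group means correlated with a median pairwise r of 0.987 (0.56 to 1.00), as a description over libraries that share depth and composition. These limits of 250 and 1000 CPM were set after the values were seen, and no test was made of them.

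The lower set held more abundant IDs, with means of 2.12 to 1629 CPM and a median of 39.5 CPM. Here the median differences of the exposures were unlike each other, and that of propranolol 4 mg/L averages replicates that stood far apart. The median difference from the reference libraries at 1 h was -1.51 for the mixture, -0.49 for isoprenaline and -0.11 for propranolol 4 mg/L. The mixture was the lowest of the 3 in 48 of the 60 IDs, and all 3 exposures lay below the reference mean in 37. Against a difference of 0.3 on the log2 scale, 57 IDs were lower by more in the mixture, 45 in isoprenaline and 12 in propranolol 4 mg/L, where 1 was higher by more.

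Libraries of the same exposure stood far apart in the lower set. The median level of the 60 IDs was 4.25, 3.75 and 2.76 on the log2 scale in the mixture, 4.64, 4.38 and 5.24 in isoprenaline and 4.11, 6.57 and 4.88 in propranolol 4 mg/L. The reference libraries lay between 4.89 and 5.94, inside the exposed range of 2.76 to 6.57. Replicates 1 and 3 of propranolol 4 mg/L were below every reference library, and replicate 2 was above every one. The small median difference of that exposure thus averages libraries on both sides of the reference. Mixture replicate 3 was the lowest of the 15 libraries in 45 of the 60 IDs, against 5.11% of all IDs with at least 2 CPM. Propranolol 4 mg/L replicate 2 was the highest in 49, against 21.2%. No ID of the lower set had every exposed library below every reference library (0 of 60, against 0.452% of all IDs with at least 2 CPM). In 8 of the 60 all 9 exposed libraries were below the reference median, and in 20 at least 8 were. The share of all IDs for these 2 counts was not computed. The median D of -0.64 was -0.51 without mixture replicate 3 and -0.87 without propranolol 4 mg/L replicate 2. At 1 h limma called none of the lower set, with 28 at an unadjusted p under 0.05 (edgeR 0 and 11), where 0.209% of all IDs were called lower and 4.05% were lower at an unadjusted p under 0.05. Since that contrast chose the members, nothing is read from these counts.

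**Figure D3:**
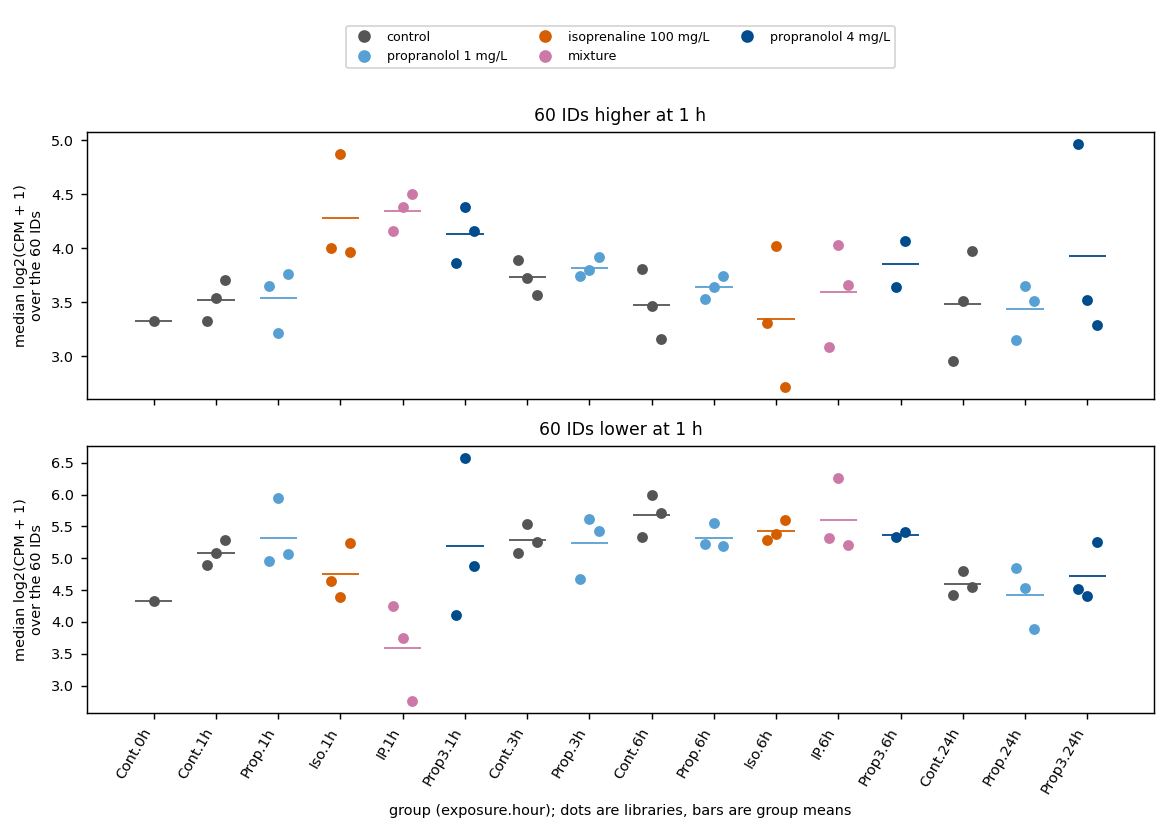
Median log2(CPM + 1) over the 60 higher IDs (top) and the 60 lower IDs (bottom) in each library, by group, with bars at group means. In the higher set the exposed libraries at 1 h (3.86 to 4.87) lie above the reference libraries (3.22 to 3.77). The choice on D at 1 h favours that separation. In the lower set the exposed libraries at 1 h run from 2.76 to 6.57 around the reference libraries.

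Dapma7bEVm002449t1 had the lowest D, -1.83. At 1 h it was at 323.6, 214.3 and 181.5 CPM in the control and 117.9, 551.9 and 157.9 CPM in propranolol 1 mg/L. It was at 102.1, 80.7 and 382.3 CPM in isoprenaline, at 77.8, 14.1 and 1.85 CPM in the mixture, and at 19.2, 875.6 and 86.2 CPM in propranolol 4 mg/L. All 3 mixture libraries were below all 6 reference libraries, while isoprenaline and propranolol 4 mg/L each had 1 library within or above the reference range. At 6 h the exposed libraries were at 137.4 to 527.8 CPM and the reference libraries at 136.3 to 476.6 CPM, which is nearly the same range. The 0 h library held 68.1 CPM.

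Dapma7bEVm005443t1 had the least overlap of the lower set. It was at 2.15 to 4.47 CPM, with a median of 3.31, in the 9 exposed libraries at 1 h and at 3.91 to 8.54 CPM, with a median of 5.24, in the 6 reference libraries. Its group means were 6.23 ± 2.32 CPM in the control, 5.12 ± 1.72 in propranolol 1 mg/L, 3.41 ± 1.09 in isoprenaline, 3.67 ± 0.65 in the mixture and 3.51 ± 0.84 in propranolol 4 mg/L (SD, n = 3 each). Unlike Dapma7bEVm002449t1, its 3 exposures had nearly equal means. At 6 h both sets of libraries spread widely, over 3.14 to 8.12 CPM in the exposed and 2.27 to 12.9 CPM in the reference libraries.

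The small average difference at 6 h, which the choice of members required, did not hold for each exposure apart. Among the higher IDs the median difference at 6 h was -0.10 for isoprenaline, 0.03 for the mixture and 0.30 for propranolol 4 mg/L. Over all IDs with at least 2 CPM these medians were -0.01, 0.05 and -0.08. Propranolol 4 mg/L, with 2 libraries, was above the reference by more than 0.3 in 30 of the 60 IDs and below by more in 9. These 2 libraries differed. The median level of the higher IDs was 3.64 in replicate 1, within the reference range of 3.16 to 3.81, and 4.07 in replicate 2. The 8 IDs described apart summed to 376.6 CPM in replicate 1 and 2090 CPM in replicate 2. Isoprenaline was above by more than 0.3 in 3 and below by more in 18. Among the lower IDs the medians at 6 h were -0.06, 0.07 and -0.10, and propranolol 4 mg/L was below by more than 0.3 in 17 and above by more in 8. Differences of opposite sign thus enter the small D at 6 h, most of all in the higher set. How far this rests on replicate 2 of propranolol 4 mg/L or on those 8 IDs was not tested. The median SE of a member in the 6 h contrast of the 3 exposures together was 0.33 in the higher and 0.35 in the lower set. The SE for 1 exposure, with fewer libraries, is larger and was not computed. Single differences near 0.3 are therefore within the spread, and larger ones may be too. The share of all IDs beyond 0.3 was not computed. No member was called by limma for the 6 h contrast (0 of 120, 0 at an unadjusted p under 0.05, edgeR 0 and 1), where 12% of all IDs were called in either direction (9.95% lower) and 8.07% were higher and 18.3% lower at an unadjusted p under 0.05. The requirement on D at 6 h fixes that count.

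**Figure D4:**
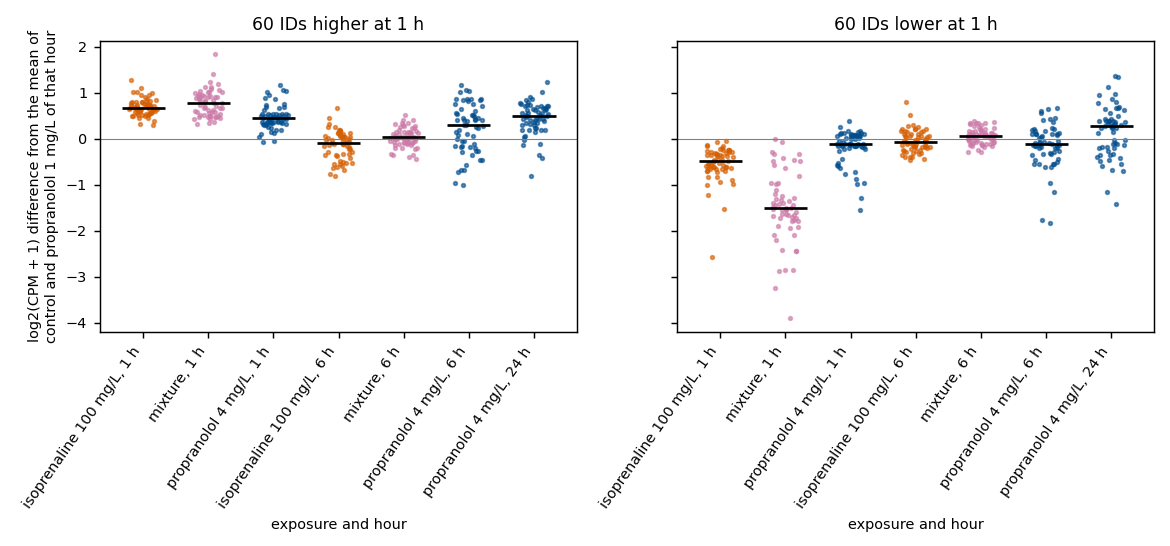
Difference of each exposure from the mean of control and propranolol 1 mg/L at 1, 6 and 24 h on the log2(CPM + 1) scale, with a dot for each of the 60 IDs per panel and a bar at the median. The mixture at 1 h stands lowest in the lower set (median -1.51), and propranolol 4 mg/L at 6 h spreads on both sides of 0 in both sets.

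Propranolol 4 mg/L at 24 h was the only exposure difference in libraries that did not enter D. It asks whether the 1 h differences of that exposure were seen again later. In the lower set its median difference at 1 h was only -0.11, against -1.51 for the mixture. Isoprenaline and the mixture have no libraries of 24 h. Whether the lower set's differences in those exposures were seen again therefore cannot be told. None of the 120 members was called by limma against control and propranolol 1 mg/L at 24 h, where 0.381% of all IDs were called higher and 0.72% lower. That background itself rested on few libraries: the 73 IDs called higher and 138 lower were 2 and 4 without propranolol 4 mg/L replicate 1, and 0 and 0 when only the compared groups were fitted. The smallest limma adjusted p was 0.226 in the higher set and 0.0946 in the lower set. At an unadjusted p under 0.05, 7 of the higher set were higher and 0 lower, and 4 of the lower set were higher and 2 lower, against 5.53% and 8.05% of all IDs. Leaving out replicate 1 of the exposed libraries turned the 7 into 0, with 2 lower, and leaving out replicate 3 of them gave 19. Leaving out any other single library gave 4 to 11, and fitting only the compared groups gave 0, with 1 lower. The 4 of the lower set ranged from 1 to 9 with a library left out. The median log2 difference was 0.49 in the higher set, with 54 of 60 IDs above 0, and 0.27 in the lower set, with 36 of 60 above 0. Over all IDs the median was 0.01, with 51.4% above 0. The median SE of a member was 0.43 in the higher and 0.46 in the lower set, against 0.24 over all IDs, which limits what these 3 libraries could show. The 10 most abundant IDs took 8.65% to 13.7% of reads in propranolol 4 mg/L and 13.5% to 25.5% in the reference libraries at 24 h, and the part of this in the medians was not tested.

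The positive median of the higher set at 24 h rested on 1 library. Replicate 1 of propranolol 4 mg/L was above the median of the 6 reference libraries at 24 h by a median of 1.61 on the log2 scale, in 54 of 60 IDs. That library had 20.1 M reads, the fewest of the 3, and its 10 most abundant IDs took 8.65% of them, the lowest share of the 45 libraries. Replicate 2 was above by 0.32, in 40 IDs, and replicate 3 was below, with a median difference of -0.19 and 24 IDs above. Without replicate 1 the median log2 difference fell to 0.07, with 33 of 60 IDs above 0. In the lower set the 3 replicates differed the other way, with median differences of -0.43, 0.13 and 0.81 for replicates 1, 2 and 3. Without replicate 3 the median log2 difference was 0.84 in the higher and -0.08 in the lower set, and without replicate 1 that of the lower set was 0.53. Over all IDs with at least 2 CPM these library medians were -0.10, -0.08 and 0.06.

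With edgeR on recovered reads 2 IDs of the higher set were called higher at 24 h and 26 were higher at an unadjusted p under 0.05. In the lower set 0 were called, with 7 higher and 1 lower unadjusted. By the same edgeR test 1992 of all 19159 IDs were higher and 1468 lower unadjusted. Over the whole table edgeR called 371 IDs higher and 201 lower, where the limma counts depend on replicate 1 as given above. The 2 called were those ranked 23 and 51 by D at 1 h. The ID of rank 23 was at 46.9, 0.183 and 0.681 CPM in propranolol 4 mg/L and at 0 to 2.03 CPM in the 6 reference libraries. That of rank 51 was at 7.51, 1.76 and 1.91 CPM against 1.21 to 2.24 CPM. In both, replicate 1 alone stood above the reference range. The named IDs were not called at 24 h by limma. Dapma7bEVm021605t1 was at 20.7, 8.88 and 4.43 CPM in propranolol 4 mg/L and 3.64 to 9.76 CPM in the reference libraries (log2 difference 0.49, SE 0.29, limma adjusted p 0.484). Dapma7bEVm005575t1 was at 32.5, 13.6 and 6.47 CPM against 6.36 to 12.9 CPM (0.52, SE 0.33, limma adjusted p 0.530). Both named IDs of the higher set were thus highest in replicate 1 and inside the reference range in replicate 3. With a library left out in turn, the log2 difference of Dapma7bEVm021605t1 ranged from -0.03, without replicate 1, to 0.97, without replicate 3 (limma adjusted p 0.0712 to 0.962 over all alternatives). That of Dapma7bEVm005575t1 ranged from -0.04 to 1.04 without the same libraries (0.0956 to 0.962). The sign of both thus changed without replicate 1. Dapma7bEVm002449t1 was at 88.3, 18.2 and 154.2 CPM against 4.76 to 81.0 CPM (1.36, SE 0.93, limma adjusted p 0.580), and its difference ranged from 0.72 without replicate 3 to 2.23 without replicate 2 (adjusted p 0.33 to 0.818 over all alternatives). Dapma7bEVm005443t1 was at 2.24, 2.97 and 4.38 CPM against 2.03 to 11.2 CPM (-0.46, SE 0.37, limma adjusted p 0.657), and its difference ranged from -0.72 to -0.21 with a library left out (adjusted p 0.381 to 0.919 over all alternatives).

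Time in the reference animals was compared in libraries that did not enter D, 24 h against 3 h. Of the lower set 14 IDs fell and 2 rose by the limma test, and of the higher set 8 fell and 6 rose, where 9.97% of all IDs fell and 10.8% rose. The share that fell, 23.3%, was above this background in the lower set and near it in the higher set, 13.3%. With only IDs of at least 2 CPM fitted, from which members came, 1852 of 15915 fell. Lower members varied together over these 12 libraries (median pairwise r of 0.36). They are therefore not separate counts, and the difference from the background was not tested. The 14 falls of the lower set ran from -2.46 to -1.16 on the log2 scale with a median of -1.52. The 8 falls of the higher set ran from -2.38 to -1.02 and its 6 rises from 0.79 to 2.12. The median log2 change was -0.42 in the lower set, with 11 of 60 above 0, and -0.31 in the higher set, with 19 of 60, against -0.01 over all IDs. Falls in the higher set numbered 5 without replicate 1 of the control or of propranolol 1 mg/L at 24 h.

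Dapma7bEVm002449t1 was among those that fell, from 49.1 to 288.6 CPM in the 6 reference libraries at 3 h to 4.76 to 81.0 CPM at 24 h. Its log2 change was -2.46 (SE 0.76, limma adjusted p 0.02). Without propranolol 1 mg/L replicate 3 at 3 h, control replicate 3 at 24 h or propranolol 1 mg/L replicate 3 at 24 h the adjusted p was 0.0584, 0.0571 or 0.0738 (range over all alternatives 0.0101 to 0.0738). The changes of the other 3 named IDs did not pass the limma test: 0.46 for Dapma7bEVm021605t1 (adjusted p 0.166), -0.06 for Dapma7bEVm005575t1 (0.897) and -0.18 for Dapma7bEVm005443t1 (0.723).

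Propranolol 1 mg/L and control, pooled as reference by the rule, were compared over 3 and 24 h. No ID of the table was called by limma (0%), and none of the 120 members by limma or edgeR. At an unadjusted p under 0.05 the higher set had 1 ID by limma and 1 by edgeR and the lower set 0 by both. Over all IDs 0.271% were higher and 4.47% lower by limma, and 196 and 329 IDs by edgeR. The median log2 difference was -0.03 in the higher set, with 25 of 60 above 0, and -0.19 in the lower set, with 7 of 60, against -0.08 and 31.1% over all IDs. With median log-ratio scaling it was 0.05, on the other side of 0, and -0.08, and with edgeR 0.07 and 0.01. The median SE of a member was 0.35 and 0.37, which limits how small a difference these libraries could show.

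The 1 h levels were also set against the reference libraries before and after. The single control library at 0 h lay nearer to the exposed than to the reference mean of 1 h in 46 of the 60 lower IDs and in 20 of the 60 higher IDs. In the lower set it was below the 1 h reference mean by a median of 1.10 on the log2 scale (a difference of -1.10, with 8 IDs above), where over all IDs with at least 2 CPM it was above by 0.27. In the higher set the median difference was -0.21. In most lower IDs the mean of the exposed libraries at 1 h was thus on the same side of the 1 h reference mean as the starting library, of which there is no replicate. The exposed libraries were not all low, and propranolol 4 mg/L replicate 2 was above every reference library in its median over the lower IDs. At 3 h the median of the 6 reference libraries was nearer to the 1 h reference mean in 57 of the lower and 48 of the higher IDs. The choice on D favours high reference means at 1 h in the lower set and low ones in the higher set. The shares of all IDs for these counts were not computed. Since 1 h values chose the members, the counts are no test.

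Members of a set also varied together where exposure could not order them. Over the 15 libraries at 3 and 24 h, deviations from group means had a median pairwise Pearson r of 0.35 within the higher set and 0.35 within the lower set, and of -0.23 between the sets. Over all pairs of IDs with at least 2 CPM the median was 0.05. Without the 3 libraries of propranolol 4 mg/L at 24 h the medians were 0.19, 0.36 and -0.06, and without replicate 1 alone 0.21, 0.39 and -0.11 (0.06 over all IDs in both cases). The median r within the lower set was thus about as high without that exposure, while that between the sets moved close to 0. These values describe 5 groups of 3 libraries that share depth and composition, and no p is given.

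**Figure D5:**
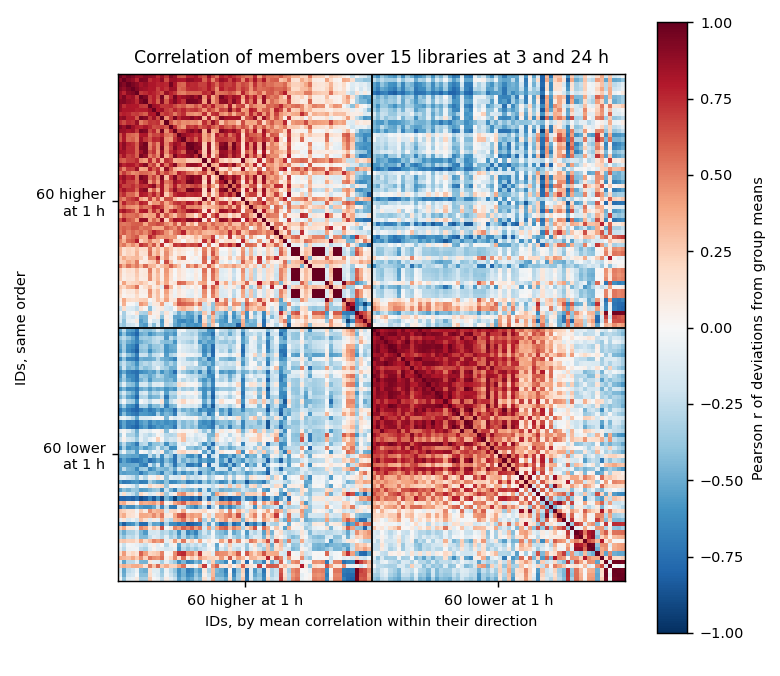
Pearson r between members of their deviations from group means over the 15 libraries at 3 and 24 h, with IDs ordered within each set by their mean r. Most of each set forms 1 correlated block (median r of 0.35 within both), a smaller block of nearly identical IDs is visible within the higher set, and r between the sets is mostly below 0 (median -0.23).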

How the data were processed

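Per the labels' protocols, a kit that keeps strand and selects mRNA was used on 500 ng of RNA. The authors deposited CPM for 19159 IDs in 45 libraries, whose tools, per the submitters' processing notes, include Bowtie2 2.1.0, edgeR, HTSeq and Trim Galore 0.3.2. The build and the annotation behind the IDs were not given in the sources used here. All 862155 values were whole multiples of a library's step within 0.01 read (100%), and a floor of 3 reads stands for 0.069 to 0.22 CPM, counting error only.

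Levels on the log2(CPM + 1) scale were tested in R 4.3.3 by limma 3.58.1 (trend, robust). The model had 16 group means, leaving 29 residual degrees of freedom, and p-values were adjusted by Benjamini-Hochberg over all IDs, with a threshold of 0.05. This scale understates changes of low IDs. The filter of 1 CPM in 3 libraries kept all 19159 IDs. Alternatives were a pseudocount of 0.25, no filter, a mean of at least 2 CPM, only the compared groups, the replicate number as a block, median log-ratio scaling, edgeR 4.0.16 (quasi-likelihood) on recovered reads, and leaving out each library. The code was first tested on simulated data. As IDs have no gene names, those with the largest absolute D and the widest gap at 1 h in each direction were named. Members and comparisons were chosen with earlier results of these data known.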

Additional observations from a re-analysis of the deposited data

How the results depend on the processing

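In the 3 comparisons over 3 and 24 h, counts of members called kept within 1.5 times under 4 settings. These were a pseudocount of 0.25, a mean of at least 2 CPM, only the compared groups and median log-ratio scaling. The fit with no filter was the same fit as the main one, since the filter removed no ID. The 1 h and 6 h contrasts were run only by limma as described and by edgeR. With edgeR on recovered reads, 2 of the higher set were called higher in propranolol 4 mg/L at 24 h in place of 0, and the cause was not tested. With libraries left out in turn the limma count stayed 0 in 9 fits, and edgeR was not rerun in this way. Falls of the higher set from 3 to 24 h ranged from 5 to 10 and those of the lower set from 10 to 15, in 12 fits each.

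At 24 h the deviations of same-numbered libraries of different groups correlated with r of 0.19 to 0.47 for replicate 1, 0.66 to 0.73 for replicate 2 and -0.27 to -0.17 for replicate 3. At 3 h control and propranolol 1 mg/L gave 0.57, 0.65 and 0.16, all over 0.1, while 24 h against 3 h of the same group ran from -0.72 to 0.24. The labels do not pair the libraries. With the replicate block the higher set had 6 rises and 8 falls and the lower set 2 rises and 15 falls from 3 to 24 h, and 0 members were called in the other comparisons.

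Repeating the choice of members kept 50 of the 60 higher and 52 of the 60 lower IDs with a pseudocount of 0.25, 51 and 53 with median log-ratio scaling, 49 and 54 with a minimum of 5 CPM, 43 and 45 with a limit of 0.2 at 6 h, and 51 and 54 with group means. With each library at 1 and 6 h left out in turn it kept 33 to 55 and 35 to 56. The lowest were 33 and 36 without propranolol 1 mg/L replicate 2 at 1 h, 37 of the lower set without mixture replicate 3 at 1 h, and 35 without propranolol 1 mg/L replicate 3 at 6 h.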
